A study of Mus musculus with 9 samples.

Results

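The 7 mouse genes of the cyclin-dependent kinase (CDK) inhibitors were followed in leukaemia with and without Ezh2. They were read through every probe set, a group of short probes for 1 transcript, whose only gene symbol was Cdkn1a, Cdkn1b, Cdkn1c, Cdkn2a, Cdkn2b, Cdkn2c or Cdkn2d. This gave 9 probe sets of 6 genes among the 45101 on the array. Cdkn2d had none of its own, because its probe set also names Gm4694, and its values are given separately as those of a shared probe set. All 9 probe sets were kept in the tests, since no filter on low values was used.

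The samples were bone marrow cells of secondary recipient mice on background strain C57B/6. These mice had developed acute myeloid leukaemia from MLL-AF9, in which the methyltransferase MLL is fused to AF9. There were 4 WT and 5 Ezh2-null samples, described as biological replicates, each on 1 array. Both genotypes carried the MLL-AF9 retrovirus, marked by GFP. Both were also sorted for YFP, the mark of Cre activity, after recipients of the primary leukaemia had been given pIpC to switch Cre on, so the WT cells had seen Cre as well. The sources used here do not give the driver of Cre, the exact Ezh2 alleles or the age of the mice. Nor do they say which primary leukaemia each secondary mouse received, so p-values measure the spread between these samples, some of which may share an origin.

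CDK inhibitors restrain the kinases that carry cells through the division cycle. The Cip/Kip proteins p21 (Cdkn1a), p27 (Cdkn1b) and p57 (Cdkn1c) bind cyclin-CDK complexes, above all those of CDK2 with cyclins E and A. The Ink4 proteins p16 (from Cdkn2a), p15 (Cdkn2b), p18 (Cdkn2c) and p19 (Cdkn2d) bind CDK4 and CDK6 and keep them from cyclin D, so that Rb proteins stay active and hold E2F factors in check. The locus of Cdkn2a also encodes p19ARF, which protects p53. Polycomb repressive complex 2, of which Ezh2 is the catalytic subunit, marks histone H3 at silenced genes, and the neighbouring genes Cdkn2a and Cdkn2b are among its best known targets.

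The start regions of Cdkn1a and Cdkn1b are shown because these were the genes whose probe sets passed the test. They are RefSeq windows of assembly GRCm38.p6, from 250 bases before to 50 after a transcription start, written 5′ to 3′ on the strand of the gene. In the upstream window of Cdkn1a, capitals mark the match to the p53 response element. In the other 2 windows they mark the GC box, GGGCGG, searched on both strands.
Cdkn1a, upstream start, chr17:29090729-29091028, plus strand: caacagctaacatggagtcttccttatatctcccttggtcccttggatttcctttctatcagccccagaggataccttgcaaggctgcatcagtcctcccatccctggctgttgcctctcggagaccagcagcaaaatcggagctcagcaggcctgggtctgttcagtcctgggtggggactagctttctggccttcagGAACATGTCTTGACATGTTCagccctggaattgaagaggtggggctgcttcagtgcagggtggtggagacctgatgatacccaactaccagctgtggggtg
Cdkn1a, downstream start, chr17:29093519-29093818, plus strand: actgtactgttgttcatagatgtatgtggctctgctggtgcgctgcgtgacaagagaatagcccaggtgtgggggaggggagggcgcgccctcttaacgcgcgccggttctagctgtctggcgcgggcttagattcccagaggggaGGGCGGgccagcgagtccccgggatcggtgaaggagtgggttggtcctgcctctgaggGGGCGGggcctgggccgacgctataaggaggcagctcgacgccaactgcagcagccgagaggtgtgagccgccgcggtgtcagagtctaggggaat
Cdkn1b, chr6:134920151-134920450, plus strand: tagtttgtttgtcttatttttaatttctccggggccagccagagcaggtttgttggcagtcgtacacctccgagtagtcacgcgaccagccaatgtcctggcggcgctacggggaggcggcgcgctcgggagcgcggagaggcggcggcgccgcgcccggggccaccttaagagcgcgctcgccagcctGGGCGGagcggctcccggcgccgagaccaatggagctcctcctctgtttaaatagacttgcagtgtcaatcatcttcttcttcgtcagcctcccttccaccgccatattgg

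The p53 element, sought as 20 bases on both strands with its C and G core bases exact, at most 1 mismatch elsewhere and no spacer, begins 51 bases upstream of the start in the first of these windows. It was found in 22 of 32851 windows of the same length, or 0.0670%. A GC box is present once in the Cdkn1b window and at 2 places in the downstream window of Cdkn1a, against 35.7% of all windows with at least 1. The upstream window of Cdkn1a holds 2 CpG dinucleotides, while the downstream window holds 23 and that of Cdkn1b 30, and the median over all windows is 7. Windows were found for 6 of the 7 genes. That of the upstream start of Cdkn2a holds 45 CpG, more than 98.1% of windows hold, and its downstream start 12. Cdkn2b has 18, Cdkn2d 22, and the upstream and downstream starts of Cdkn2c have 33 and 8. These matches describe letters in the windows and were not tested against binding.

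Ezh2, the deleted gene, stood at 9.21 ± 0.18 on the log2 scale with the deletion (SD, n = 5) against 10.50 ± 0.49 in WT (SD, n = 4; limma adjusted p = 0.0426), with no overlap. The position of its probe set relative to the deletion was not used here. The 10 markers of myeloid leukaemia, Hoxa9, Meis1, Ptprc, Kit and Mpo among them, summed to intensities of 31599 to 40907 in WT and 30982 to 40536 in Ezh2-null arrays. Mpo alone, the brightest, ran from 8165 to 19335. In limma 0 of the 10 passed and 2 had an unadjusted p under 0.05, with opposite signs, Cd33 at 1.03 (limma adjusted p = 0.139) and Cebpa at -1.26 (limma adjusted p = 0.140). Over all 20680 genes, each read through its brightest probe set, 0.43% passed and 16.7% had an unadjusted p under 0.05. Markers of T cells summed to 736 to 1017 in WT and 845 to 1118 in Ezh2-null arrays, and those of B cells to 747 to 937 and 857 to 1032. The 8 monocyte and macrophage markers summed to 5199 to 5656 in WT and 3794 to 5969 in Ezh2-null arrays. Of these 0 passed in limma and 2 had an unadjusted p under 0.05, Cd68 at -0.51 and C1qa at 0.38. The 6 erythroid markers summed to 603 to 961 in WT and 640 to 828 in Ezh2-null arrays. Summed markers of 3 other lineages reached higher levels in Ezh2-null arrays, without overlap for all but the neutrophil genes. The 7 mast cell, basophil and eosinophil genes summed to 777 to 1033 in WT and 1825 to 16100 in Ezh2-null arrays, the 5 megakaryocyte genes to 587 to 668 and 806 to 996, and 7 of 8 neutrophil genes to 27622 to 58495 and 44117 to 78142. In the mast cell, basophil and eosinophil list, Prg2 reached 8828 and Prg3 5654 on Ezh2-null arrays. Log2 differences were 3.42 for Prg2, 2.98 for Prg3, 1.46 for Gata2, 1.38 for Cpa3 and 0.34 for Epx. Mcpt8 and Fcer1a, at -0.03 and -0.05, did not rise, and 0 of the 7 passed in limma. Of the neutrophil and megakaryocyte genes 0 passed too, with Elane at -0.20, Prtn3 at 0.03 and Ppbp at 0.02. Without WT replicates 3 and 4 the median log2 difference was 0.23 for neutrophil genes, against 0.90 with all arrays. It was 0.11 against 0.29 for megakaryocyte genes and 0.89 against 1.38 for mast cell, basophil and eosinophil genes. No marker is listed at 0, since RMA intensities have no zero. The part of these cells in the results that follow was not tested.

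Among the CDK inhibitors, both probe sets of Cdkn1a and 1 of the 2 of Cdkn1b were lower in Ezh2-null leukaemia, though 1 of Cdkn1a did not pass. The other probe set of Cdkn1b differed by only -0.10 on the log2 scale. No Ink4 gene passed the test, nor reached an unadjusted p under 0.05, which 15.9% of all probe sets did. With limma and a Benjamini-Hochberg adjusted p under 0.05 over all probe sets, 2 of the 9 probe sets passed, both lower, 1 of Cdkn1a and 1 of Cdkn1b. Of all 45037 probe sets tested, 0.402% passed, and 0.16% passed in the lower direction. The genotypes did not overlap on 3 of the 9 probe sets, against 5.42% of all. The median log2 difference, Ezh2-null minus WT, was -0.17 over the 9 probe sets, -1.03 over the 5 of Cip/Kip genes and -0.05 over the 4 of Ink4 genes, beside 0.02 over all probe sets. The 5 hold 2 probe sets each of Cdkn1a and Cdkn1b and 1 of Cdkn1c. On the brightest probe set of each gene the differences were -1.23 for Cdkn1a, -0.10 for Cdkn1b and -0.91 for Cdkn1c. Only that of Cdkn1a passed. All 5 Cip/Kip values kept a negative sign under quantile normalization, array median centring and the batch-adjusted table, and their median stayed between -1.05 and -0.94. In samples of many cells, fewer cells of a type and less RNA per cell cannot be told apart.

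**Figure D1:**
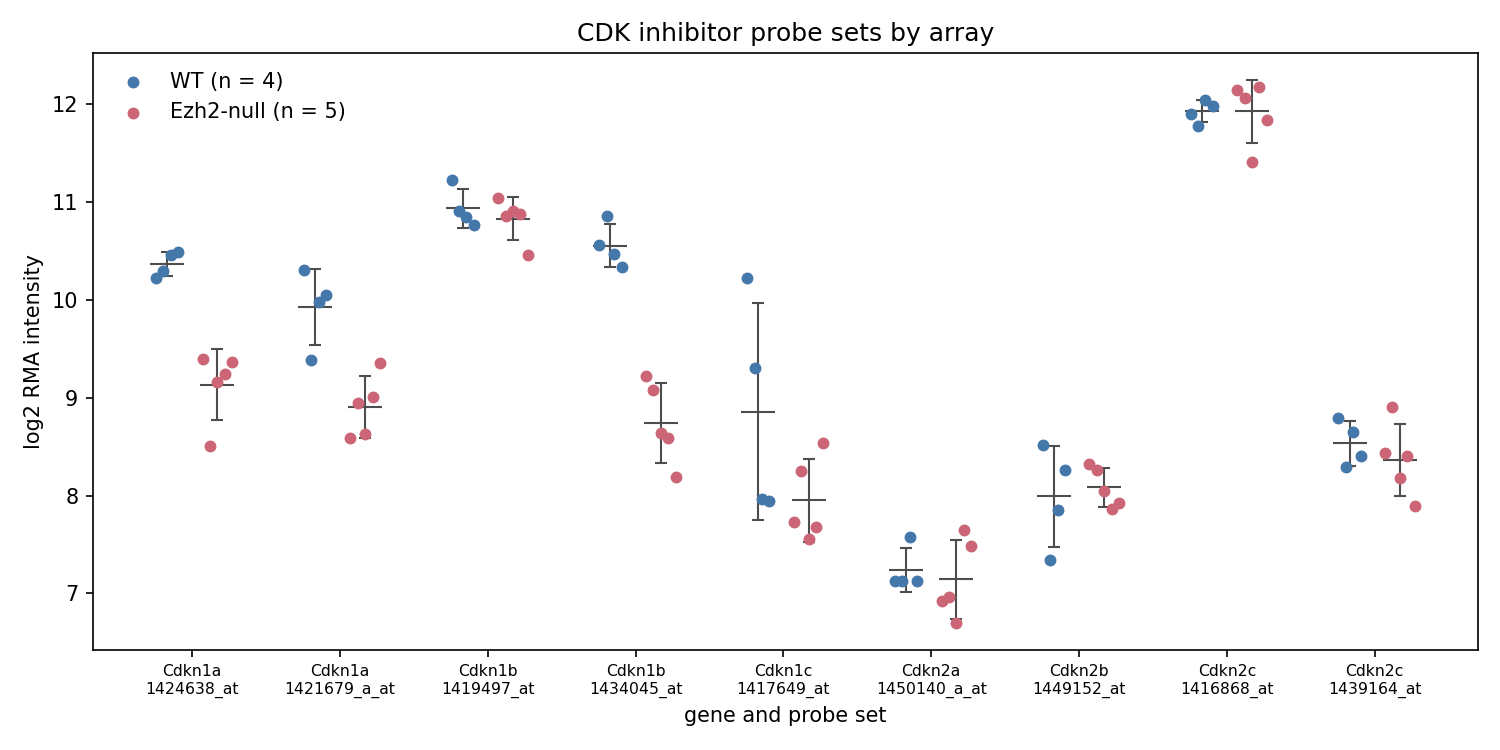
Log2 RMA intensity (vertical axis) of each of the 9 CDK inhibitor probe sets (horizontal axis) on the 4 WT and 5 Ezh2-null arrays, 1 point per array, with the mean and SD of each genotype. The genotypes are apart on both probe sets of Cdkn1a and on 1 of Cdkn1b, and overlap on the other 6. Heights of different probe sets cannot be compared with each other.

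Cdkn1a encodes p21, the inhibitor best known for arresting cells on p53 activation, and its 2 start regions are those printed above. On its probe set 1424638_at the intensities of WT replicates 1 to 4 were 1200, 1256, 1412 and 1436, and those of Ezh2-null replicates 1 to 5 were 672, 364, 573, 606 and 661. Every Ezh2-null array lay below every WT array, with Ezh2-null replicate 2 the lowest. The log2 levels were 10.37 ± 0.13 (SD, n = 4) in WT and 9.14 ± 0.36 (SD, n = 5) in Ezh2-null, a difference of -1.23 (SE 0.18, limma adjusted p = 0.0283). This is a 2.35-fold lower level, with a 95% confidence interval of 1.78 to 3.12. A two-sided exact permutation test over the 126 splits of the arrays gave p = 0.00794, the smallest it can give.

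The other probe set of Cdkn1a, 1421679_a_at, read 1269, 671, 1010 and 1061 on WT replicates 1 to 4 and 385, 495, 397, 513 and 655 on Ezh2-null replicates 1 to 5. Its groups were separate too, but only just, since WT replicate 2 at 671 stood close to Ezh2-null replicate 5 at 655. The log2 difference was -1.03 (SE 0.21) and the limma adjusted p 0.0767, so this probe set did not pass. Its exact permutation p was 0.00794. The 2 probe sets of Cdkn1a differed in their genotype difference by 0.21 on the log2 scale, which was less than the spread between arrays (exact permutation p = 0.516, two-sided).

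The call of 1424638_at was lost in several of the fits with 1 array left out, while its size hardly moved. Leaving out WT replicate 3 gave a limma adjusted p of 0.0888, and leaving out WT replicate 4 gave 0.0879. The adjusted p was 0.0539 after removal of Ezh2-null replicate 1, 0.0718 after replicate 3 and 0.0759 after replicate 4. In these fits fewer of all probe sets passed too, at 42, 29, 60, 45 and 23 in this order, against 181 as reported. Where the call was kept, 43 passed without Ezh2-null replicate 2. Without WT replicate 1, WT replicate 2 or Ezh2-null replicate 5 the counts were 232, 399 and 305. Removing both of WT replicates 3 and 4 raised it to 0.145. Those arrays stood apart from the rest, with a mean log2 deviation of neutrophil markers of -1.43 and -0.92, against 0.04 and 0.23 on WT replicates 1 and 2 and -0.22 to 0.75 on Ezh2-null arrays. The log2 difference lay between -1.30 and -1.08 over all 20 alternative analyses, and 14 of them kept the call. The probe set 1421679_a_at passed without WT replicate 2, at an adjusted p of 0.0338, and with array weights, at 0.0437.

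Cdkn1b encodes p27, which holds resting cells out of the cycle and is controlled largely by protein breakdown. Its 2 probe sets differed in the size of their genotype difference. On 1434045_at, WT replicates 1 to 4 read 1511, 1858, 1414 and 1294, and Ezh2-null replicates 1 to 5 read 596, 539, 400, 385 and 293. The lowest WT array was more than 1 log2 unit above the highest Ezh2-null array, at a gap of 1.12. The log2 levels were 10.56 ± 0.22 (SD, n = 4) and 8.74 ± 0.41 (SD, n = 5), a difference of -1.81 (SE 0.21, limma adjusted p = 0.0161). The level was 3.51-fold lower, with a 95% confidence interval of 2.54 to 4.86, and ranked 16 by p among all 45037 probe sets.

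On 1419497_at, Cdkn1b read 2397, 1922, 1843 and 1741 on WT replicates 1 to 4 and 2109, 1863, 1923, 1888 and 1411 on Ezh2-null replicates 1 to 5. The groups overlapped almost fully. The log2 difference was -0.10 (SE 0.15, limma adjusted p = 0.765), with a 95% confidence interval of -0.43 to 0.22 that leaves out the change of the other probe set. Within each array, 1419497_at exceeded 1434045_at by 0.38 ± 0.25 (SD, n = 4) on WT arrays and by 2.09 ± 0.26 (SD, n = 5) on those without Ezh2. That contrast was compared after the disagreement had been seen, and its genotype difference of 1.71 had an exact permutation p of 0.00794 (two-sided). It was 1.33 in the batch-adjusted table.

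Among 5229 genes with exactly 2 probe sets, the median gap between their genotype differences was 0.19, and the gap of Cdkn1b exceeded that of 99.8% of them. As the mean of its probe sets, Cdkn1b had a log2 difference of -0.96 and passed (limma adjusted p = 0.0325). Where the 2 probe sets lie on the Cdkn1b transcript was not used here, so which of them stands for p27 mRNA was not tested. The call of 1434045_at was kept in 16 of 18 alternative analyses. It was lost narrowly without Ezh2-null replicate 4 (adjusted p = 0.0507) and without WT replicates 3 and 4 together (adjusted p = 0.0527), at differences of -1.77 and -1.97.

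**Figure D2:**
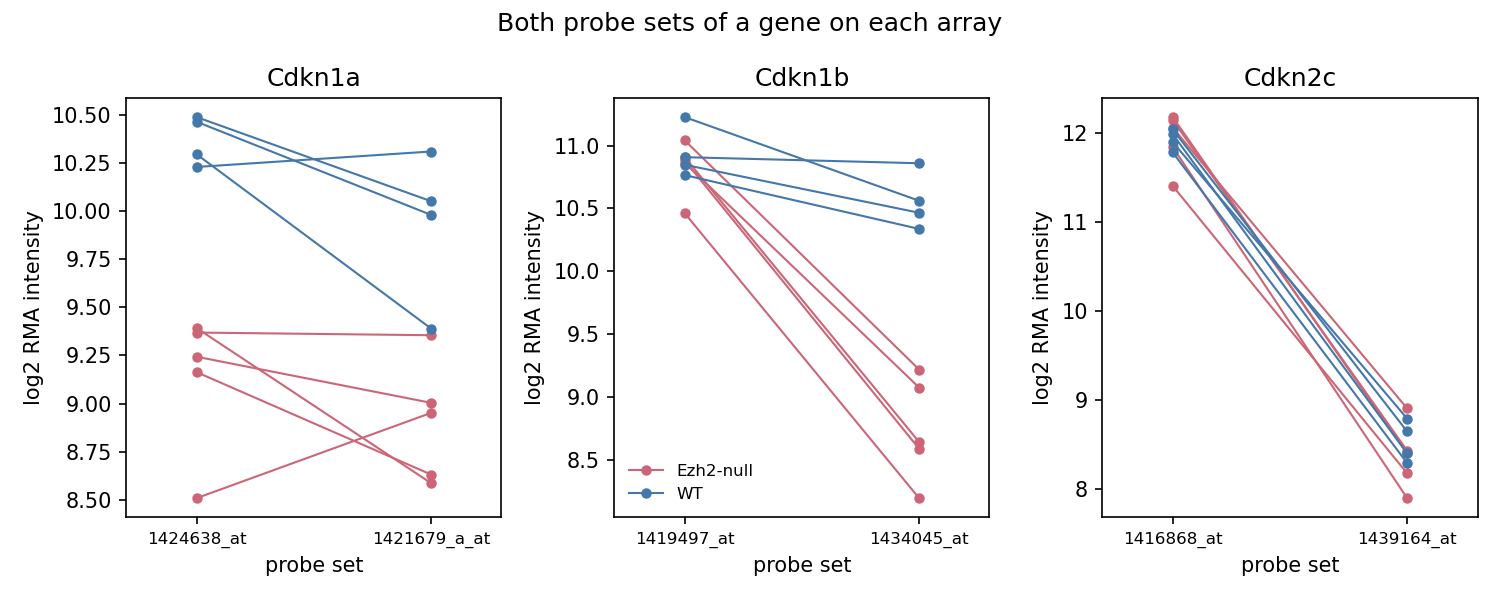
Log2 RMA intensity (vertical axis) of the 2 probe sets of Cdkn1a, Cdkn1b and Cdkn2c (horizontal axis), with a line joining the values of each array, 4 WT and 5 Ezh2-null. Lines of Cdkn1b start together at 1419497_at and end apart at 1434045_at, where Ezh2-null arrays are 1.81 lower, while the genotypes are apart at both probe sets of Cdkn1a and at neither of Cdkn2c.

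Cdkn1c encodes p57, the imprinted member of the Cip/Kip family, expressed from the maternal copy and known for keeping blood stem cells quiescent. Its probe set 1417649_at read 1198, 631, 250 and 246 on WT replicates 1 to 4, and 212, 305, 188, 205 and 371 on Ezh2-null replicates 1 to 5. WT replicates 1 and 2 were above every Ezh2-null array, while WT replicates 3 and 4 lay inside the Ezh2-null range. The log2 difference was -0.91 (SE 0.45, limma adjusted p = 0.361, exact permutation p = 0.135), with a 95% confidence interval of -1.92 to 0.10. Omitting WT replicate 1 gave -0.45, and omitting WT replicates 3 and 4 together gave -1.81. It passed in 0 of 20 alternative analyses in limma, although the difference was negative in all of them. Among WT arrays, the mean log2 deviation of 8 stroma and endothelium markers was also highest on replicate 1. It was 0.44, 0.06, -0.22 and -0.22 on WT replicates 1 to 4. On Ezh2-null arrays it ran from -0.13 to 0.09. It was highest there on replicates 4 and 5, at 0.07 and 0.09, where Cdkn1c read 205 and 371. Those markers summed to 1476 to 3021 in WT and 1550 to 2230 in Ezh2-null arrays, with Vwf alone at 103 to 571 in WT. The pattern among WT arrays was not particular to them, since 6 erythroid markers had mean deviations of 0.30, 0.02, -0.21 and -0.20 on WT replicates 1 to 4. Erythroid deviations on Ezh2-null arrays ran from -0.15 to 0.21. The part of either list in the spread of Cdkn1c was not tested.

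The 10 genes around Cdkn1c, in its imprinted region and the adjoining one of Igf2 and H19, did not pass. In limma 0 of the 10 were called and 0 had an unadjusted p under 0.05, with a median log2 difference of -0.08. Of all genes, each read through its brightest probe set, 16.7% had an unadjusted p under 0.05. Smallest in p were the tetraspanin gene Cd81 at 0.30 (adjusted p = 0.318) and the growth factor gene Igf2 at -0.43 (adjusted p = 0.381).

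Cdkn2a, which encodes p16 and p19ARF, read 140, 140, 192 and 140 on WT replicates 1 to 4 of its probe set 1450140_a_at, and 121, 124, 104, 201 and 179 on Ezh2-null replicates 1 to 5. The highest and the lowest values were both on Ezh2-null arrays. WT replicates 1, 2 and 4 hold the very same deposited value, a state that 11.9% of probe sets share on 3 or more arrays. The log2 difference was -0.10, with a 95% confidence interval of -0.56 to 0.37 (limma adjusted p = 0.858). The interval leaves out a rise above 1.29-fold in probe set intensity. The shared WT value of 140 is below the median intensity of the arrays, which ran from 148 to 158. Whether a change in mRNA would show in full at so low a signal was not tested. A probe set for the gene does not separate p16 from p19ARF unless its position is known, and that was not used here.

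Cdkn2b encodes p15, an inhibitor induced by TGF-beta and often silenced in human myeloid leukaemia. Its WT intensities ran from 162 to 366, with replicate 2 the lowest and replicate 1 the highest, and its Ezh2-null intensities from 233 to 321, inside that range. The log2 difference was 0.09, with a 95% confidence interval of -0.41 to 0.59 (limma adjusted p = 0.873).

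Cdkn2c encodes p18, an Ink4 protein that limits the renewal of blood stem cells in mice. On 1416868_at its intensities ran from 3527 to 4217 in WT and from 2717 to 4646 in Ezh2-null arrays. The means were 11.93 on the log2 scale in both genotypes, with SDs of 0.11 (n = 4) and 0.32 (n = 5), and the confidence interval of the difference was -0.37 to 0.37. On 1439164_at the difference was -0.17 (confidence interval -0.61 to 0.27, limma adjusted p = 0.708). The probe set that Cdkn2d shares with Gm4694 ran from 400 to 595 in WT and from 441 to 713 in Ezh2-null arrays, a log2 difference of 0.18 (confidence interval -0.20 to 0.56, limma adjusted p = 0.632).

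**Figure D3:**
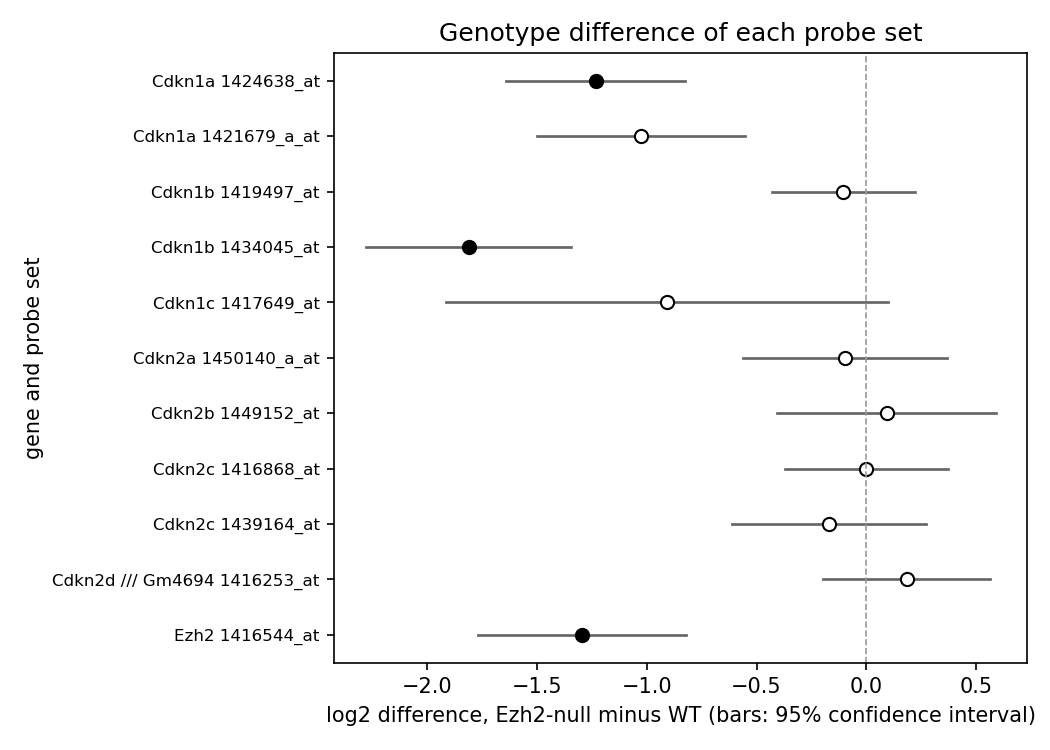
Log2 difference, Ezh2-null minus WT (horizontal axis), of each CDK inhibitor probe set, the probe set shared by Cdkn2d and Gm4694, and Ezh2 (vertical axis), with 95% confidence intervals from limma over 9 arrays. Filled points passed at an adjusted p under 0.05. The intervals of both Cdkn1a probe sets and of 1434045_at lie below 0, and those of all Ink4 probe sets include 0.

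Mtap, which salvages methionine and is the gene next to Cdkn2a, stood lower in Ezh2-null leukaemia without passing. Its log2 level was 9.30 ± 0.63 (SD, n = 4) on WT arrays and 8.10 ± 0.22 (SD, n = 5) on those without Ezh2. The genotypes did not overlap, which held for 5.42% of all probe sets. The difference was -1.19 (SE 0.26, limma adjusted p = 0.0889). Its 3 other probe sets had differences of -1.16 to -0.55. Mtap passed in 2 of 20 alternative analyses, with array weights (adjusted p = 0.0355) and without WT replicate 2 (adjusted p = 0.0444). Over all 20 its difference lay between -1.42 and -0.65, with limma adjusted p up to 0.225. Of the 4 genes around Cdkn2a and Cdkn2b that were listed, 0 passed in limma and 1 had an unadjusted p under 0.05. Among all genes read through their brightest probe set, that share was 16.7%. Elavl2, an RNA-binding protein gene, was at 0.39 (adjusted p = 0.362).

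The partners of the inhibitors were listed by role and read through 1 probe set a gene, that with the highest mean level. Over all 20680 genes read this way, 0.43% passed and 16.7% had an unadjusted p under 0.05, with a median difference of 0.02. Of 13 cyclins and kinases of G1 and S phase, 0 passed in limma and 4 had an unadjusted p under 0.05. Their median log2 difference was -0.26, with 12 of 13 negative, a number that fell to 9 under quantile normalization. Cdk6 and Cdk4, the kinases that Ink4 proteins bind, were at -0.47 (adjusted p = 0.139) and -0.75 (adjusted p = 0.167).

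Of 13 Rb, E2F and DP genes, 0 passed in limma, 7 had an unadjusted p under 0.05 and the median was -0.36. E2f8, a repressor of the family, was at -0.65 (adjusted p = 0.109), and Rbl1, which encodes the Rb relative p107, at -0.60 (adjusted p = 0.144). Without WT replicates 3 and 4 the median of this list was -0.16. Of 9 genes of p27 turnover 0 passed in limma and 4 had an unadjusted p under 0.05, with a median of -0.34 and 8 of 9 negative. Without WT replicates 3 and 4 the median was -0.21 and 6 were negative. The mean log2 deviation of the list was 0.33 and 0.37 on those arrays, against 0.03 and -0.05 on WT replicates 1 and 2. The ubiquitin ligase subunit gene Rnf123 was at -0.40 (adjusted p = 0.174) and Cks1b, which helps the ligase SKP2 to seize p27, at -0.35 (adjusted p = 0.201).

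Of 16 proliferation genes 1 passed, Bub1 of the spindle checkpoint at -1.15 (limma adjusted p = 0.0459). The second probe set of Bub1 was at 0.46. Bub1 passed in 8 of 20 alternative analyses, and of the 9 fits with 1 array left out in that without WT replicate 2 alone, with adjusted p of 0.051 to 0.120 in the others. All 16 differences were negative, 15 under quantile normalization, with a median of -0.28, but the median was -0.07 and 9 were negative without WT replicates 3 and 4. On those arrays the mean log2 deviation of the list was 0.53 and 0.44, against -0.13 and 0.00 on WT replicates 1 and 2 and -0.29 to 0.00 on Ezh2-null arrays. Without the same arrays the log2 difference of Cdkn1a 1424638_at was -1.13 and did not pass (limma adjusted p = 0.145). The part of proliferation in the results on the inhibitors was not tested.

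The p53 pathway held 0 of 19 genes that passed in limma, 6 with an unadjusted p under 0.05, and a median of -0.08, or 0.02 without WT replicates 3 and 4. Gadd45a and Btg2, both p53 targets that slow the cycle, were at 1.12 (adjusted p = 0.0889) and 1.02 (adjusted p = 0.0893). Trp53inp1, with the largest difference of the list, was at 1.16 (adjusted p = 0.117), and its other probe set at 0.89. Gadd45a, Btg2 and Trp53inp1 had the smallest p of the list. By sign the list was mixed, with 8 genes higher and 11 lower, the sign of Cdkn1a. Among the lower were Aen at -0.41 (adjusted p = 0.182), with other probe sets at -0.78 to 0.29, and Bax at -0.38 (adjusted p = 0.298). The part of p53 in the level of Cdkn1a was not tested. Of 19 transcription factors that act on CDK inhibitor genes, 0 passed in limma, 6 had an unadjusted p under 0.05 and the median was -0.06, or -0.03 without those arrays. Smad4, which carries TGF-beta signals, was at 0.68 (adjusted p = 0.0889), while its 2 other probe sets stood at -0.22 and 0.26. Cebpa, a factor of granulocyte fate, was at -1.26 (adjusted p = 0.140).

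Among 14 Polycomb repressors of CDK inhibitor genes, Bmi1 rose, and the 12 other than Bmi1 and Ezh2 did not pass. Ezh2 fell, but it is the deleted gene, so its call is not a finding of the list. Bmi1, whose protein silences Cdkn2a, had log2 levels of 8.87 ± 0.55 (SD, n = 4) on WT arrays and 10.56 ± 0.42 (SD, n = 5) on those without Ezh2, a difference of 1.69 (SE 0.28, limma adjusted p = 0.0441). Its other probe set was at 1.93. Bmi1 passed in 10 of 20 alternative analyses. Of the 9 fits with 1 array left out, it passed in that without Ezh2-null replicate 5 alone, with adjusted p of 0.051 to 0.120 in the others. Ezh2 passed in that without WT replicate 1 alone, with adjusted p of 0.0543 to 0.114 in the others.

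**Figure D4:**
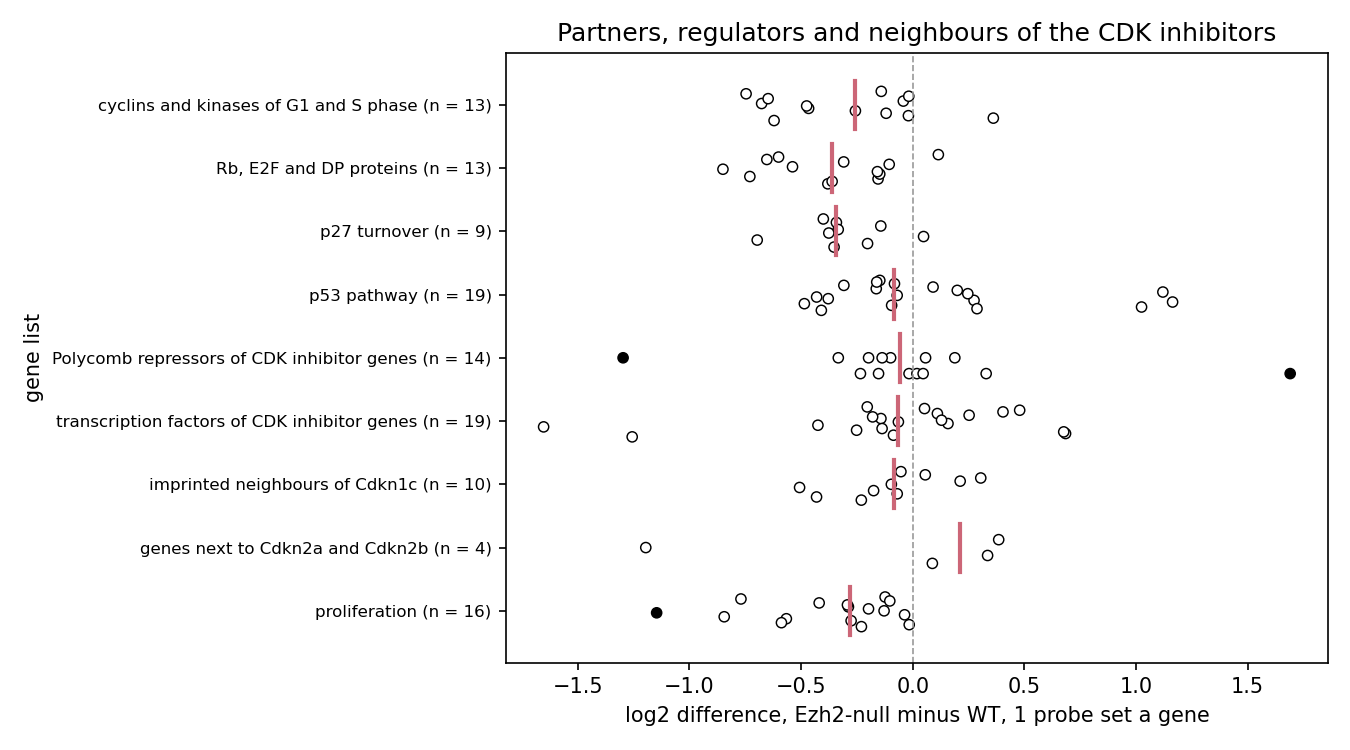
Log2 difference, Ezh2-null minus WT (horizontal axis), of each gene in the 9 lists of partners, regulators and neighbours (vertical axis), 1 probe set a gene, with the list's median as a vertical bar. Filled points, which are Ezh2, Bmi1 and Bub1, passed in limma at an adjusted p under 0.05.

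Other genes were ranked by how closely their deviations from the genotype means followed those of Cdkn1a 1424638_at over the 9 arrays. Of 20569 probe sets compared, the most alike were those of Pwwp2a, Rpl15, Pacrgl, Tbpl1 and Zfx, with correlations of deviations of 0.946 to 0.953. These are descriptions over arrays that share 2 group means. The largest deviation of Cdkn1a was on Ezh2-null replicate 2, at 8.51 against 9.16 to 9.39 on the other Ezh2-null arrays. That array therefore weighs heavily in these correlations. How high the best of so many probe sets would reach by chance was not tested, nor was shared control with Cdkn1a. None of the 5 passed in limma, with adjusted p from 0.211 to 0.928 and log2 differences from -0.53 to 0.02.

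**Figure D5:**
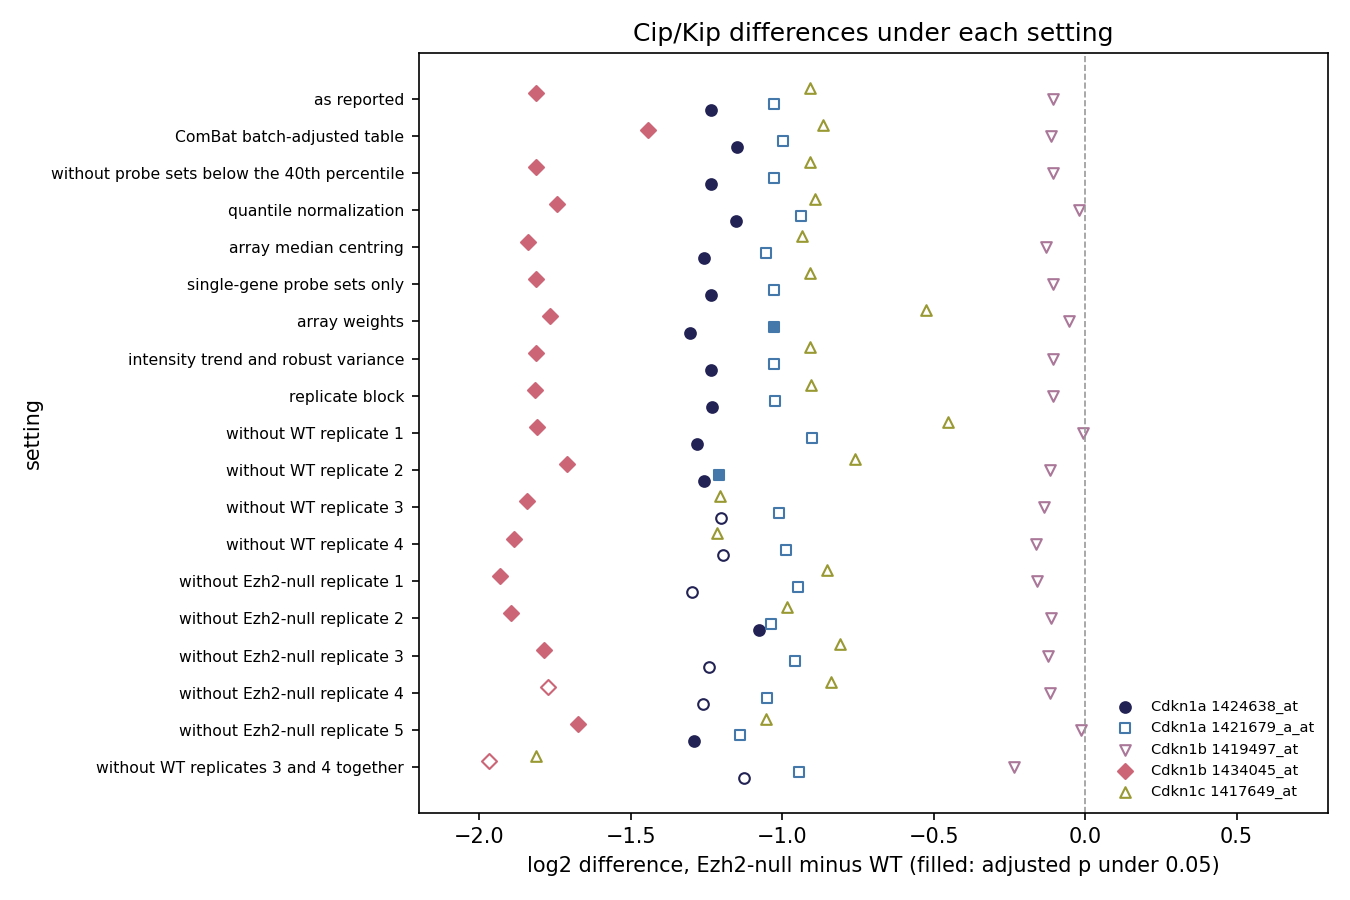
Log2 difference, Ezh2-null minus WT (horizontal axis), of the 5 Cip/Kip probe sets under each setting on single probe sets (vertical axis), filled where the adjusted p was under 0.05. All points lie below 0, and those of Cdkn1b 1434045_at range from -1.97 to -1.44.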

How the data were processed

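Total RNA of 9 samples was amplified, labelled with biotin and hybridised, per the labels' protocols. The authors deposited 1 intensity per probe set and sample, made with RMA per the submitters' processing notes (version not given). RMA normally ends in log2 values, so the linear scale is inferred from the range of 6.33 to 43676. In a second deposited table the intensities had been batch-corrected with ComBat jointly with those of another series, per the file header. It supplied gene symbols and an alternative. Its 7 other sample columns were not used, and 2 values below 1 were set to 1. The sources used here do not give the array type or probe positions.

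Intensities were turned to log2 without a filter. Genotypes were compared with limma 3.58.1 (lmFit, eBayes; R 4.3.3) fitting genotype alone. The fit covered 45037 probe sets, without 64 array controls, two-sided, with Benjamini-Hochberg adjustment over all and a threshold of 0.05. Exact permutation tests ran over 126 splits. Of the probe sets, 37818 name 1 gene, 1399 several and 5820 none. The procedure was tested on simulated data. Precision is limited by the number of arrays.

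Every member probe set, Ezh2, and in each list the genes that passed, at most 4, or else the 2 with the smallest p were named, and for likeness to Cdkn1a the 5 closest probe sets. Marker lists are given by their sums, and some of their genes are named. In the p53 pathway list Trp53inp1, Aen and Bax were named too. Members and lists were chosen with earlier results of these data known. Promoter windows are from RefSeq. The alternatives were the batch-adjusted table, leaving out probe sets below the 40th percentile of mean level, quantile normalization, array median centring, probe sets with 1 gene only, 1 probe set or the mean per gene, a variance trend with intensity and robust variance, array weights, the replicate block, leaving out arrays, and a threshold of 0.1. The contrast of the 2 Cdkn1b probe sets was added after seeing the data.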

Additional observations from a re-analysis of the deposited data

Results flagged for a closer look

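Within a genotype, the highest or lowest array stood far from the rest in 6 of 54 groups looked at, and chance alone marks about 1 in 20 groups. On Cdkn1a 1424638_at, Ezh2-null replicate 2 was at 8.51 on the log2 scale, with the other Ezh2-null arrays at 9.16 to 9.39. On Cdkn2a, WT replicate 3 was at 7.58, and the other WT arrays shared the value 7.13. E2f8 was at 11.17 on Ezh2-null replicate 3, against 10.76 to 10.84 on the others. Cd81 was at 12.14 on WT replicate 2, against 11.81 to 11.83. Igf2 was at 6.42 on Ezh2-null replicate 1, against 6.73 to 6.74. Elavl2 was at 7.15 on Ezh2-null replicate 2, against 6.31 to 6.43. Without Ezh2-null replicate 2, Cdkn1a 1424638_at had a log2 difference of -1.08 and still passed (limma adjusted p = 0.0332).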

How the results depend on the processing

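Of the CDK inhibitor probe sets 2 passed as reported, 1 of 6 with 1 probe set a gene, 0 to 3 when 1 array was left out, and 0 without WT replicates 3 and 4 together, where 2 WT arrays remain. The count was 1 without WT replicate 3, WT replicate 4, Ezh2-null replicate 1 or Ezh2-null replicate 3, and 0 without Ezh2-null replicate 4. Over all probe sets 181 passed, 109 higher and 72 lower. This became 299 in the batch-adjusted table (145 higher, 154 lower), 507 with array weights, 103 with 1 probe set a gene, 23 to 399 with 1 array left out, 66 without WT replicates 3 and 4 together and 739 at an adjusted p under 0.1. With the replicate number as a block 2 CDK inhibitor probe sets and 130 of all passed. Deviations of same-numbered arrays correlated at -0.01, 0.08, 0.14 and -0.12, so the numbers were not taken to pair the samples. Under the block Bmi1 and Bub1 each had an adjusted p of 0.0502. Signs turned only for Ink4 genes, none of which passed in limma. Cdkn2a was at 0.049 in the batch-adjusted table, 0.018 without WT replicates 3 and 4 together, and -0.22 to 0.018 with 1 array left out. Cdkn2b was at -0.13 to 0.27 with 1 array left out. Cdkn2c 1416868_at was at -0.026 with median centring, -0.031 with array weights, -0.085 as the mean of its probe sets, -0.00039 with the replicate block and -0.063 to 0.13 with 1 array left out. The cause of these shifts was not tested.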
